A study of Bos taurus with 8 samples.

Results

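The polycistron from miR-17 to miR-92a and its paralog from miR-106a to miR-363 are clusters of miRNA hairpins, each transcribed as 1 RNA. Of the 763 miRNAs on the bovine array, 10 of their products were taken by name as the members: bta-miR-17-5p, bta-miR-17-3p, bta-miR-18a, bta-miR-18b, bta-miR-19a, bta-miR-19b, bta-miR-20a, bta-miR-20b, bta-miR-92a and bta-miR-363, written without the species prefix from here on. The first hairpin of the second cluster, miR-106a, is not among the 10 and is given with the relatives. Of these 10, 9 were detected on every array and tested, and miR-18b was not well above background on any. RNA came from the mammary gland of 8 healthy heifers that were not pregnant, 4 Holstein-Friesian (a dairy breed) and 4 Limousin (a beef breed), with no treatment named. The sample characteristics give an age of 20 months and the protocol one of 2 years. The labels describe the animals as biological replicates, and each had its own one-colour array. Differences are given as Limousin minus Holstein-Friesian.

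In mammals the transcript from miR-17 to miR-92a is activated by the transcription factor MYC and is known for promoting cell proliferation and survival, in part through repression of BIM and CDKN1A. The cluster from miR-106a to miR-363 is its paralog on the X chromosome. The hairpins fall into seed families, groups that share the bases pairing with a target mRNA: miR-17-5p with miR-20a, miR-20b and miR-106a, miR-18a with miR-18b, miR-19a with miR-19b, and miR-92a with miR-363. Because each cluster is transcribed as a unit, its mature miRNAs differ in level mainly through processing and stability after transcription. The arms of a hairpin are the strands cut from its 2 sides, and for miR-17 the 5p arm is the usual guide strand.

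The array annotation places the probes of the first cluster at chr12:66226574-66227323 and those of the second at chrX:17917759-17918560 in the UMD 3.1 build, the latter listed from the higher to the lower coordinate. All 10 members matched hairpin genes in the RefSeq table of a later assembly, ARS-UCD2.0, and no other gene of that table overlapped the hairpins. The probes of miR-19b and miR-92a match both clusters, so their signals cannot be given to either transcript. The annotation lists 3 positions for the miR-92a probes and 2 for those of miR-106a, so each also has a position outside the clusters. Seed partners differ by few bases in their probes, which decides how far their signals can be separated. The probes that represent the miR-17 seed partners are shown 5′ to 3′, with capitals at the 2 positions where the aligned probes differ.
miR-17-5p: actacctgcactGtAagc
miR-106a: tacctgcactGtAagca
miR-20a: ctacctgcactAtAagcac
miR-20b: tacctgcactGtGagc
Over the 16 aligned bases the probes of miR-17-5p and miR-106a are identical, and they differ only in the bases beyond these. How far they separate the chromosome 12 product from its X-linked partner was not tested, so either signal may hold both products. The miR-20a probe has 1 mismatch to that of miR-17-5p (G13A, counted from the 5′ end of the miR-17-5p probe), and the miR-20b probe has 1 at another position (A15G). The miR-20a and miR-20b probes differ at 2 of 16 bases.

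The probes of miR-18a and miR-18b differ at 1 base, as do those of miR-19a and miR-19b, again in capitals.
miR-18a: taTctgcactagatgcac
miR-18b: taActgcactagatgcac
miR-19a: tcagttttgcatAgatttgca
miR-19b: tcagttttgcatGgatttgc
The cross-hybridisation between such partners was not tested. For miR-363 the 2 probes are printed because only the longer one was detected, the capital being its added base.
miR-363 longer probe: cgcagatggataccG
miR-363 shorter probe: cgcagatggatacc

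Between 28.6% and 35.5% of the spots were well above background on each array, between 243 and 297 miRNAs were detected per array, and no spot was saturated. One slide carried the 8 arrays, which were scanned together, and each breed had its own position on it, so slide position cannot be separated from breed. With 4 arrays a breed, precision is limited by their number. Of 269 miRNAs that every array of 1 breed or of both detected, limma called 113 (42%) at a Benjamini-Hochberg adjusted p of 0.05, of which those above 0 make 13.8% and those below 0 make 28.3% of the tested miRNAs. The miRNA miR-205 of basal epithelium and all 5 miRNAs of the luminal list (miR-200a, miR-200b, miR-200c, miR-141 and miR-429) were detected, and 0 of these 6 passed limma at an adjusted or an unadjusted p of 0.05.

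Against that 42%, 1 of the 9 tested members differed between the breeds: miR-363 was lower in Limousin. The other 8 did not pass, with log2 differences from -0.45 for miR-20b to 0.19 for miR-20a. At an unadjusted limma p under 0.05 the count was also 1 of the 9 members, again miR-363, beside 137 of the 269 tested miRNAs. The median log2 difference of the 9 members was 0.07, beside -0.07 for all tested miRNAs. These directions are relative to the scaling, since the Limousin arrays were brighter and the median of all tested miRNAs shifts to 0.79 without it; then 64.7% of all tested miRNAs were called, 172 higher and 2 lower, 7 members passed as higher in Limousin, and miR-17-5p, miR-92a and miR-20b changed sign.

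**Figure D1:**
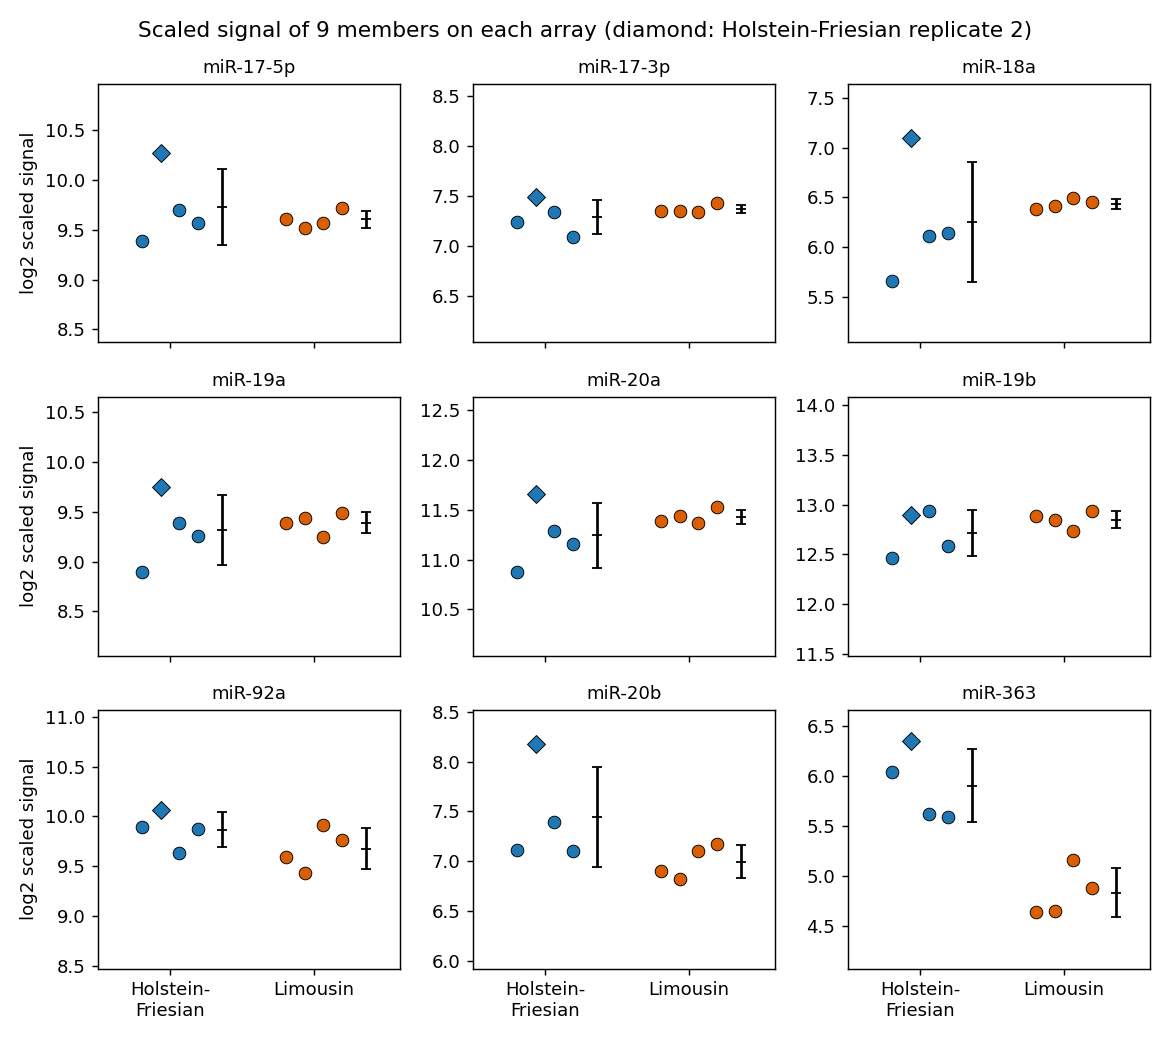
Log2 scaled signal of the 9 tested members on each of the 8 arrays (points), with the mean and SD of each breed beside them (bars, n = 4); every panel spans the same range. The breeds are separate for miR-363 alone, and Holstein-Friesian replicate 2 (diamond) is the highest array of its breed for 8 of the 9 members.

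Among the products of chromosome 12, miR-17-5p, the guide strand that gives the cluster its name, had log2 signals of 9.39, 10.27, 9.70 and 9.57 in Holstein-Friesian replicates 1 to 4, and of 9.61, 9.52, 9.57 and 9.72 in Limousin replicates 1 to 4. The Limousin arrays lay within the Holstein-Friesian range. Its difference was -0.13 (SE 0.18, n = 4 per breed; 95% interval -0.52 to 0.27; limma adjusted p = 0.604). The opposite arm, miR-17-3p, ran from 7.09 to 7.49 in Holstein-Friesian and from 7.34 to 7.43 in Limousin, a difference of 0.08 (95% interval -0.18 to 0.33; limma adjusted p = 0.614).

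Within an array, the log2 ratio of miR-17-5p to miR-17-3p compares the arms without any scaling between arrays. It was 2.15, 2.78, 2.36 and 2.48 in Holstein-Friesian and 2.26, 2.16, 2.23 and 2.29 in Limousin. The breeds overlapped, and the difference of -0.21 (SE 0.13) had a two-sided exact permutation p of 0.200, where 70 splits of the arrays allow no p below 0.0286. This call depends on the processing and on 1 array. After each array was corrected for the GC content and length of its probes the difference was -0.32, and without Holstein-Friesian replicate 1 it was -0.30 (exact permutation p = 0.0286 in both). Without Holstein-Friesian replicate 2 it was -0.093 (exact permutation p = 0.343), and with normexp background correction 0.0096.

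For miR-18a, which lies next to miR-17 and has been linked to repression of the estrogen receptor in human cells, the signals were 5.66, 7.09, 6.11 and 6.14 in Holstein-Friesian and 6.38, 6.41, 6.49 and 6.45 in Limousin. The Limousin arrays were close together, between Holstein-Friesian replicate 2 and the other 3 arrays of that breed. The difference was 0.18 (SE 0.25; 95% interval -0.37 to 0.74; limma adjusted p = 0.603). Without Holstein-Friesian replicate 2 it was 0.46 (limma adjusted p = 0.0156), and without replicate 1 it was -0.015. The weaker of its 2 probes was detected on 1 of the 4 Holstein-Friesian and all 4 Limousin arrays.

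The miR-19 members, known as main carriers of the cluster's oncogenic activity in mouse lymphoma, did not pass, and their breeds overlapped. For miR-19a the range was 8.89 to 9.74 in Holstein-Friesian and 9.25 to 9.49 in Limousin, a difference of 0.07 (95% interval -0.30 to 0.45; limma adjusted p = 0.749). The signal of miR-19b, which both clusters encode, was 12.46 to 12.93 in Holstein-Friesian and 12.73 to 12.94 in Limousin, a difference of 0.13 (95% interval -0.17 to 0.43; limma adjusted p = 0.467). After the GC and length correction both differences were below 0, at -0.29 and -0.11, and neither passed.

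The seed partner of miR-17-5p on the same transcript, miR-20a, had signals of 10.88, 11.66, 11.28 and 11.15 in Holstein-Friesian and of 11.38, 11.44, 11.37 and 11.53 in Limousin. All Limousin arrays were above 3 of the Holstein-Friesian arrays and below the fourth, replicate 2. The difference was 0.19 (95% interval -0.16 to 0.54; limma adjusted p = 0.388), and without that replicate 0.32 (limma adjusted p = 0.0457). The last hairpin of the transcript, miR-92a, which is also encoded on X and is known for restraining vessel growth, was 9.64 to 10.07 in Holstein-Friesian and 9.44 to 9.91 in Limousin. Its difference of -0.19 had a 95% interval of -0.50 to 0.12 (limma adjusted p = 0.305).

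The members encoded only by the X-linked cluster are miR-18b, miR-20b and miR-363. No array detected miR-18b. Its log2 signal was 2.55, 4.19, 2.87 and 2.57 in Holstein-Friesian and 2.96, 2.87, 2.89 and 3.15 in Limousin, below the lowest detected probe of each array. In the authors' deposited value table it stands at the value for undetected signals on 6 arrays and at -3.70 and -3.46 on Limousin replicates 2 and 4.

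The other seed partner, miR-20b, had signals of 7.12, 8.17, 7.40 and 7.10 in Holstein-Friesian and of 6.90, 6.82, 7.10 and 7.17 in Limousin. The breeds overlapped only narrowly, Limousin replicate 4 being above the 2 lowest Holstein-Friesian arrays. The difference of -0.45 (SE 0.22; 95% interval -0.95 to 0.05) did not pass (limma adjusted p = 0.13). It passed with normexp background correction (-0.53; limma adjusted p = 0.0151) and with no background correction (-0.52; limma adjusted p = 0.0190). Under these settings the median of all tested miRNAs was -0.38 and -0.36, and 63.6% and 62.8% of them were called. Without scaling the difference of miR-20b was 0.40.

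At the far end of the X-linked transcript, miR-363 had log2 signals of 6.05, 6.36, 5.62 and 5.59 in Holstein-Friesian and of 4.64, 4.65, 5.16 and 4.87 in Limousin. The lowest Holstein-Friesian array was above the highest Limousin array, where 36.8% of all tested miRNAs also had no overlap. On the linear scale the scaled signal was 48.3 to 82.1 in Holstein-Friesian and 24.95 to 35.8 in Limousin. The signal was 2.10-fold higher in Holstein-Friesian (95% interval 1.56 to 2.83), a log2 difference of -1.07 (SE 0.19; limma adjusted p = 0.0034), the 15th largest in size of the 269. The member is dim: it stood 0.74 to 1.46 above the lowest detected probe of its array on the log2 scale. Its shorter probe was detected on no array, so the call rests on 1 probe. The call ended without scaling, where the difference was -0.22 (limma adjusted p = 0.529), and after the GC and length correction it was -0.73 (limma adjusted p = 0.0205).

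**Figure D2:**
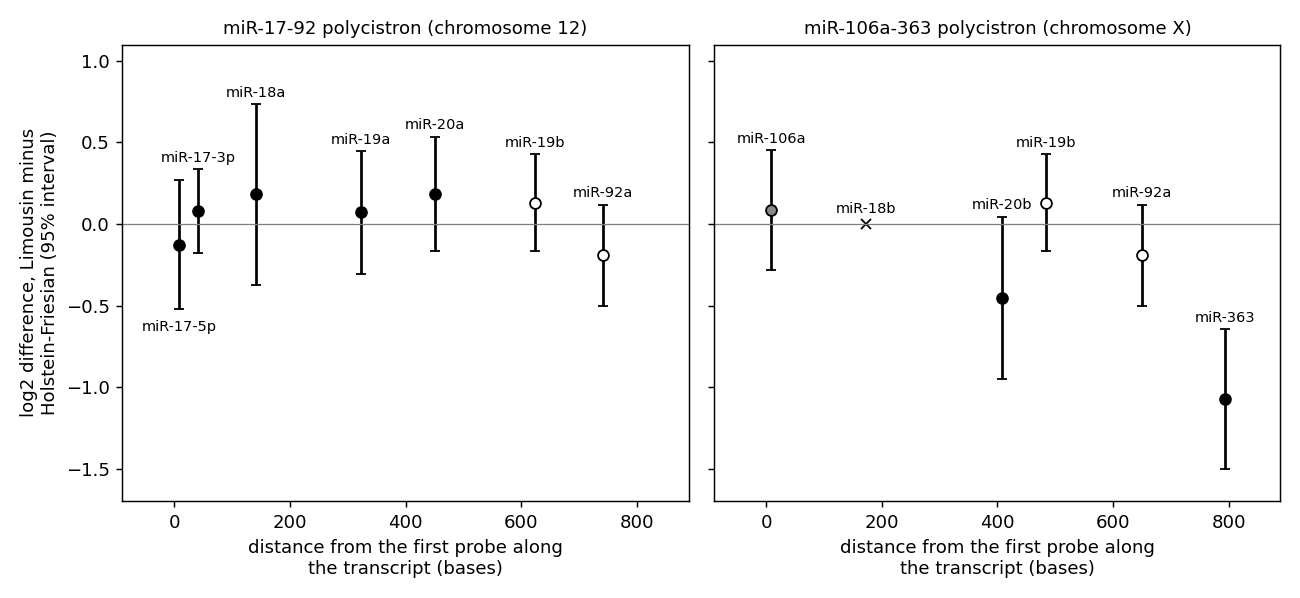
Log2 difference of each miRNA (Limousin minus Holstein-Friesian, with its 95% interval) against the distance of its probe from the first probe of the transcript, in bases. White points are miR-19b and miR-92a, which match both transcripts, the grey point is miR-106a, and the cross marks the position of miR-18b, which was not tested. Intervals include 0 for every miRNA drawn except miR-363, at -1.07.

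The members were then set against each other on the same array, which needs no scaling. Of 33 planned pairs within a transcript or between seed partners, 28 had both members detected on all 8 arrays. In 8 of the 28 (28.6%) the log2 ratio did not overlap between the breeds, which is the exact permutation p of 0.0286, the smallest possible. Among all 26796 pairs of miRNAs detected on all 8 arrays this share was 36.5%, above the share among the member pairs. None of the 28 passed Benjamini-Hochberg adjustment over the pairs (adjusted p = 0.10 for each of the 8).

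Of the 21 pairs within the chromosome 12 cluster, 2 separated the breeds. The ratio of miR-17-5p to miR-20a was lower in Limousin by -0.31 on the log2 scale (SE 0.06; exact permutation p = 0.0286), with -1.51 ± 0.097 in Holstein-Friesian and -1.82 ± 0.066 in Limousin (SD, n = 4). That of miR-19a to miR-20a differed by only -0.11 (SE 0.04; exact permutation p = 0.0286), and its groups overlapped with the second probe, the probe mean and the deposited values (exact permutation p = 0.0857 in each). The differences over the 21 pairs ran from -0.31 to 0.38. Other pairs separated the breeds under other settings, each with an exact permutation p of 0.0286. After the GC and length correction these were miR-17-3p to miR-19a (0.49), miR-17-3p to miR-19b (0.30) and the arm ratio of miR-17 (-0.32). With normexp and with no background correction it was miR-17-3p to miR-20a (-0.35 and -0.32). With the probe mean and the second probe it was miR-17-5p to miR-18a (-0.47 and -0.63). Both use a miR-18a probe that was detected on 1 of the 4 Holstein-Friesian arrays and on all 4 Limousin arrays.

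Of the 6 pairs within the X-linked cluster, 4 separated the breeds, 3 of them with miR-363. The log2 ratio of miR-92a to miR-363 was 3.85, 3.71, 4.02 and 4.28 in Holstein-Friesian and 4.95, 4.78, 4.75 and 4.89 in Limousin. Every Limousin array was higher, by 0.88 on average (SE 0.13; exact permutation p = 0.0286). For miR-19b to miR-363 the difference was 1.20 (SE 0.26), and for miR-20b to miR-363, both encoded only on X, it was 0.62 (SE 0.19), each with an exact permutation p of 0.0286. The last of these overlapped with normexp or no background correction (0.36 and 0.38, exact permutation p = 0.0857 in both). The one with miR-19b overlapped after the GC and length correction (0.62, exact permutation p = 0.0571). With normexp or no background correction the ratio of miR-20b to miR-92a also separated the breeds (-0.34 and exact permutation p = 0.0286 in both).

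The chromosome 12 seed partners were also set against miR-20b of the X-linked cluster. The log2 ratio of miR-20a to miR-20b was 3.76, 3.48, 3.89 and 4.05 in Holstein-Friesian and 4.49, 4.62, 4.27 and 4.36 in Limousin, again higher on every Limousin array, by 0.64 (SE 0.14; exact permutation p = 0.0286). That of miR-17-5p to miR-20b differed by 0.33 (SE 0.09) and that of miR-19b to miR-20b by 0.58 (SE 0.21), each with an exact permutation p of 0.0286. After the GC and length correction these 3 ratios overlapped between the breeds, at 0.30, 0.099 and 0.12 (exact permutation p = 0.114, 0.457 and 0.886). The ratio of miR-17-5p to miR-20b also overlapped with the probe mean, the second probe and the deposited values (exact permutation p = 0.0857, 0.114 and 0.0571), and that of miR-19b to miR-20b with the second probe (exact permutation p = 0.0571). The ratios of miR-17-5p to miR-20a and of miR-92a to miR-363 did not overlap under any of the 6 other settings tried for these ratios, of which the second probe gives no information on miR-363, that probe being below background on every array.

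**Figure D3:**
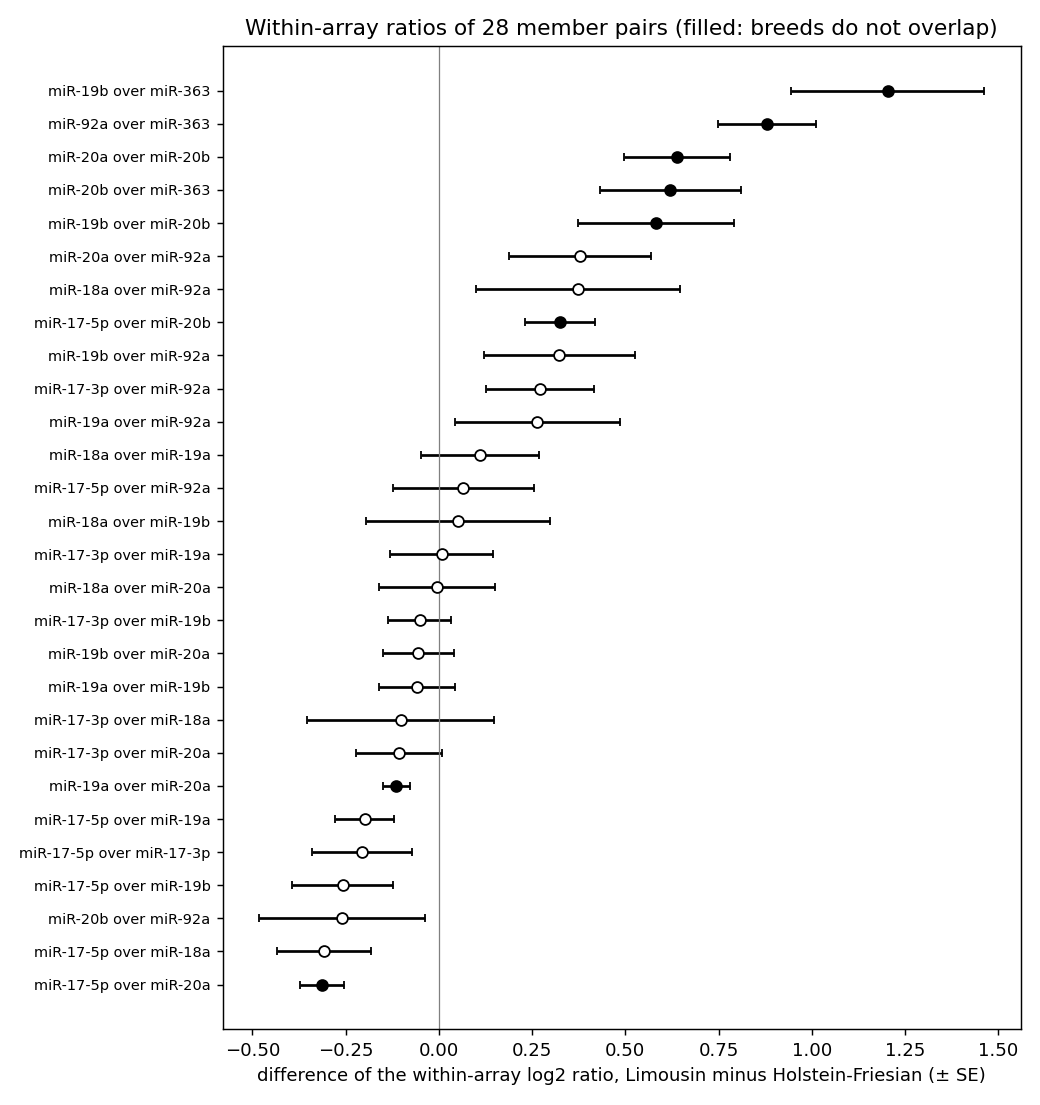
Difference between the breeds of the log2 ratio of 2 members on the same array (Limousin minus Holstein-Friesian, points with SE, 4 arrays per breed) for the 28 pairs. Filled points mark the 8 pairs whose breeds do not overlap, led by miR-19b over miR-363 at 1.20 and, on the other side, miR-17-5p over miR-20a at -0.31.

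Within Holstein-Friesian, replicate 2 was the highest array of its breed for 8 of the 9 members, the exception being miR-19b, and was highest for 31.5% of the 232 miRNAs detected on all arrays. It exceeded the mean of the other 3 Holstein-Friesian arrays for all 9 members, by 0.23 for miR-19b to 1.12 for miR-18a on the log2 scale, with a median of 0.57. Over the 232 miRNAs the median of this gap was -0.04, and the middle 50% lay between -0.39 and 0.24. The 5 tested relatives from the list of related miRNAs were also above the mean of the other 3 arrays in replicate 2, by 0.24 for miR-25, 0.33 for miR-106b, 0.51 for miR-93, 0.59 for miR-106a and 0.72 for miR-32. The SD of the members had a median of 0.35 in Holstein-Friesian and 0.088 in Limousin, beside 0.24 and 0.15 over the 232 miRNAs.

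**Figure D4:**
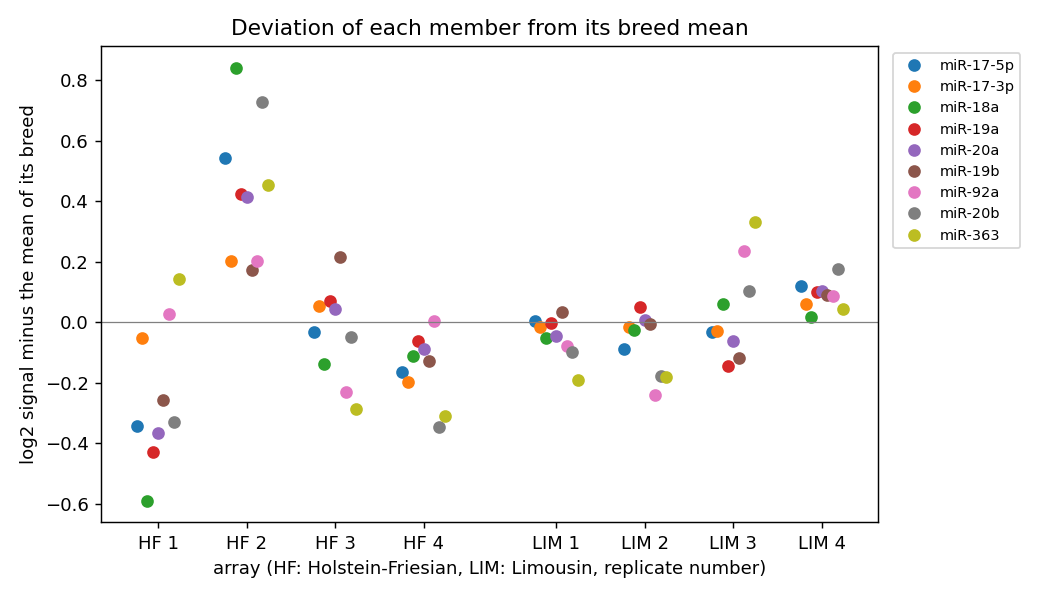
Log2 signal of each of the 9 members minus its mean over the 4 arrays of the same breed, by array. In Holstein-Friesian replicate 2 all 9 points are above 0, up to 0.84 for miR-18a, while the Limousin points stay between -0.24 and 0.33.

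Marker miRNAs on this array went in both directions. The red cell miRNA miR-451 was at 7.07 there and at 4.85 to 5.53 in the other Holstein-Friesian animals; miR-144 and miR-486, also of that list, were detected on no array. The summed signal of the 5 luminal miRNAs was 14190 to 16620 in Holstein-Friesian, with replicate 2 the highest, and 14590 to 16490 in Limousin. Of these 5, miR-200a, miR-141 and miR-429 were above the mean of the other 3 arrays, by 0.65, 0.58 and 0.47, while miR-200b and miR-200c were at -0.10 and -0.23. The basal miR-205 was at -0.32 against that mean, with a signal of 2796, the lowest of its breed (2796 to 3947). The leukocyte list, in which 4 of 6 miRNAs were detected, summed to 1110 in replicate 2, within the 1028 to 1541 of its breed and below the 1479 to 1897 of Limousin. Against the mean of the other 3 arrays, miR-150, miR-155 and miR-223 were at -0.56, -0.41 and -0.77 in replicate 2, and miR-142-5p at -0.0022. In this list miR-142-3p and miR-146a were detected on no array, and 2 of the 4 tested miRNAs, miR-155 and miR-142-5p, rose in Limousin. The 5 stromal miRNAs, of which 2 rose and 0 fell in Limousin, summed to 9221 in replicate 2, within 9036 to 9778 in its breed and beside 9360 to 10960 in Limousin. Neither endothelial miRNA passed, nor the 1 of 6 skeletal muscle miRNAs that could be tested, and miR-206, miR-208b and miR-499 of the latter list were detected on no array. The part of these cells in the members' levels was not tested, and in whole tissue fewer cells of a type and less RNA per cell cannot be told apart. Without replicate 2, where 53.2% of all tested miRNAs were called, 3 of the 9 members passed: miR-18a and miR-20a as higher in Limousin, and miR-363 as lower, by -0.92 (limma adjusted p = 0.0016).

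Relatives that are not among the 10 members were read from a list of miRNAs of the same seed families, miR-106a included, and the miR-106b-25 cluster, which in mammals lies in an intron of MCM7. Of 7 on the array 5 were tested, 1 rose, 0 fell and 4 did not pass, with a median of 0.15. Of all 269 tested miRNAs 13.8% rose and 28.3% fell, with a median of -0.07. The relative that rose was miR-25, of the miR-92a seed family. It was at 9.99, 10.27, 10.12 and 9.99 in Holstein-Friesian and 10.31, 10.38, 10.40 and 10.60 in Limousin. Its difference was 0.33 (SE 0.12; limma adjusted p = 0.0400). Its cluster neighbours miR-106b and miR-93 differed by 0.33 (limma adjusted p = 0.0662) and 0.15 (0.429), and miR-32 by 0.11 (0.664). The breeds did not overlap for miR-25 and miR-106b, beside 36.8% of all tested miRNAs. The call of miR-25 under other settings is not given here. For miR-106a, the first hairpin of the X-linked transcript, the signal was 9.54 to 10.32 in Holstein-Friesian and 9.87 to 10.07 in Limousin, a difference of 0.09 (95% interval -0.28 to 0.45; limma adjusted p = 0.693). The probes of miR-92b and miR-367 were below background on every array.

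The miRNAs whose profiles were most like those of miR-17-5p and miR-363 were sought among the other miRNAs detected on all 8 arrays, by the SD over the 8 arrays of the log2 ratio. Nearest to miR-17-5p were miR-660 (SD 0.085), miR-532 (0.11) and the luminal miR-429 (0.13). Nearest to miR-363 were miR-30f (0.15), miR-378b (0.20) and miR-30a-5p (0.21), with log2 differences between the breeds of -1.13, -0.78 and -0.80, a direction that the choice by likeness to miR-363 favours. Over the 28 member pairs the median of this SD was 0.24, beside 0.41 over all pairs of the 232 miRNAs; the pairs share arrays, and some share probe sequence.

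**Figure D5:**
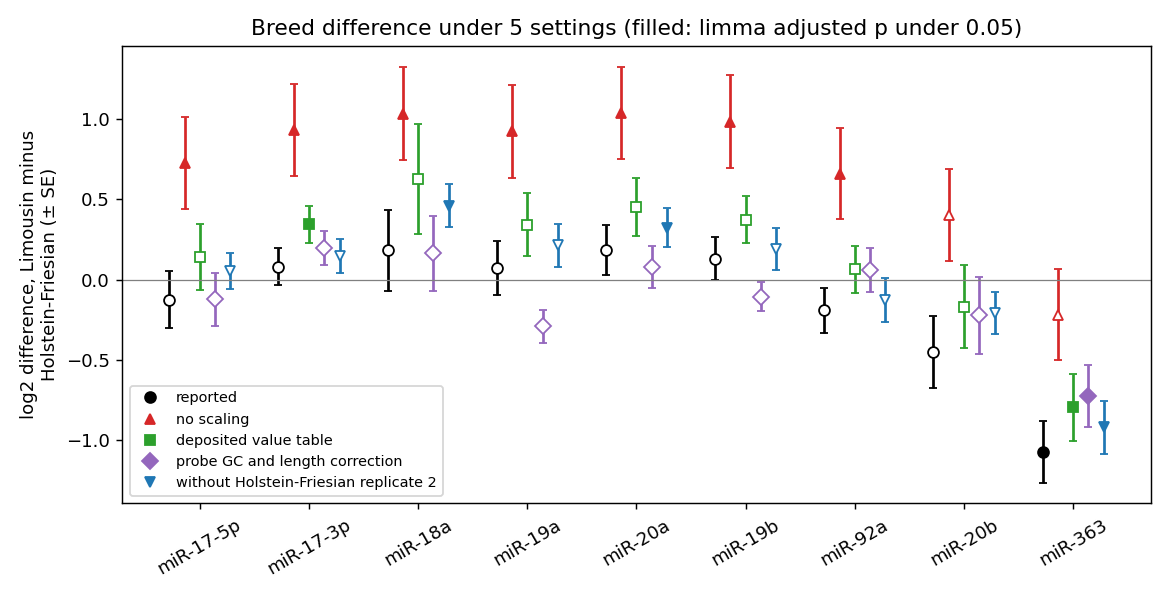
Log2 difference of the 9 tested members (Limousin minus Holstein-Friesian, points with SE) as reported and under 4 other settings (no scaling, the deposited table, the GC and length correction, and without Holstein-Friesian replicate 2), filled where the limma adjusted p is under 0.05. The difference of miR-363 stays below 0 under each, from -1.07 as reported to -0.22 without scaling, and without scaling every member shifts up by the same amount.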

How the data were processed

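Per the file headers, the authors' scanner intensities came from Agilent Feature Extraction 10.10.1.1, already corrected for a fitted background and not scaled between arrays. The flags the authors deposited beside them (another kind of value, 0 or 1) gave detection, saturation and outliers. The deposited value table holds log2 values with no stated scale. Set against the scanner files, a column was the log2 total gene signal less 1 constant, to within 9.74e-06, its median running from -9.79 to -8.53, and it served as an alternative.

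Flagged outliers and control spots were dropped and each probe's 15 to 30 spots averaged. Detection required over 50% of a probe's spots above background. Scaling divided each array by its 75th percentile, taken from the 429 probes that all arrays detected; values were rescaled to a common mean, set to at least 1, and log2 was taken. Each miRNA had its probe with the highest mean. limma 3.58.1 in R 4.3.3 fitted breed as the only term, with p adjusted over 269 miRNAs; this step was tested on simulated data. Ratios of 2 members had a two-sided exact permutation test. All members, all tested relatives in the family list, and the 3 miRNAs nearest to miR-17-5p and to miR-363 are named. Members, lists and tests were chosen with earlier results of these data known. Mature sequences were not used here. Alternatives changed the scaling, background correction, probe choice, detection filter, floor, variance trend, probe GC and length correction and replicate block, used the deposited table, or left out 1 array; the ratios of single pairs under other settings were added after seeing the data.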

Additional observations from a re-analysis of the deposited data

Results flagged for a closer look

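In groups of 4 arrays, 3 of 74 sets of values held 1 array far from the others (Dixon's critical value 0.829), where chance flags about 1 in 20. The log2 signal of miR-17-3p was 7.43 in Limousin replicate 4 and 7.34 to 7.35 in the other Limousin arrays. The log2 ratio of miR-18a to miR-19a was -2.75 in Limousin replicate 3 and -3.04 to -3.01 in the others. The log2 ratio of miR-19a to miR-20a was -1.99 in Holstein-Friesian replicate 1 and -1.91 to -1.90 in the others.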

How the results depend on the processing

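The difference of miR-363 kept its direction and its call under 24 of 25 alternatives, all but no scaling. Of the 24, the second probe rests on a probe detected on no array and does not bear on it. The probe mean left the difference at -1.07, since only 1 probe was detected. The filters, floors, variance trend and replicate block alone also left it at -1.07, so they bear on the call only. The number of member pairs separating the breeds, 8, was 6 to 9 over 8 alternatives with all arrays, partly other pairs. It was 8 to 11 with 1 array left out, which cannot make separate breeds overlap. The share of tested miRNAs past the threshold, 42%, was 64.7% without scaling, 63.6% with normexp, 22.7% with the GC and length correction and the replicate block together, and 26.4% to 53.2% when 1 array was left out (26.4% without Limousin replicate 1, 27.1% without Holstein-Friesian replicate 4). With no filter on detection it was 11.9%, over all miRNAs on the array. The split of higher against lower calls, 37 against 76, was 104 against 30 with the percentile over all probes, 56 against 45 with quantile normalization, 172 against 2 without scaling, 81 against 28 with the deposited table and 47 against 31 after the GC and length correction. The number of members, 1, was 7 without scaling and 4 with the percentile over all probes. It was 2 with normexp, with no background correction and with the deposited table, and 1 to 3 when 1 array was left out. The share of all tested miRNAs called was 49.8% with the percentile over all probes, 62.8% with no background correction and 40.5% with the deposited table. The arm ratio of miR-17, -0.21, was 0.0096 with normexp, -0.32 after the GC and length correction, and -0.30 to -0.093 when 1 array was left out.

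Signs turned for miR-17-5p without scaling (0.73), with the percentile over all probes (0.20), with the deposited table (0.14) and without Holstein-Friesian replicate 2 (range -0.24 to 0.054 when 1 array was left out); for miR-92a under the first 3 of these (0.66, 0.14 and 0.063) and after the GC and length correction, with or without the block (0.062); for miR-20b without scaling (0.40); for miR-17-3p and miR-18a with normexp (-0.14 and -0.23) and with no background correction (-0.11 and -0.20); for miR-18a and miR-19a without Holstein-Friesian replicate 1 (ranges -0.015 to 0.46 and -0.071 to 0.21 when 1 array was left out); and for miR-19a and miR-19b after the GC and length correction, with or without the block (-0.29 and -0.11). Except where the samples or the scaling itself differ, the cause was not tested. Titles give both breeds the numbers 1 to 4. Same-numbered arrays deviated together for 1 of the 4 pairs only (correlations -0.30, -0.25, -0.45 and 0.31). So few correlations cannot settle whether the numbers pair the animals. With the replicate block miR-363 stayed at -1.07 (limma adjusted p = 0.0094). The arm ratio of miR-17 stayed at -0.21 (exact paired p = 0.25, where the smallest is 0.125). A slide block was not run, since all arrays lie on 1 slide. Low signal limits miR-18a, miR-18b and miR-363 most.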
